A study of Mus musculus with 16 samples.

Results

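The RNA of 9 surface marker genes that are used to stage B-cell progenitors was followed across 16 libraries of BCR-ABL1p185+ mouse bone marrow cell lines: Kit, Spn, Ptprc, Cd24a, Enpep, Cd93, Il2ra, Cd22 and Cd72. The genes were taken by name, as markers of the pro-B and pre-B stages, and all 9 were found among the 50686 genes of the count tables. The libraries form 4 groups of 4: wild-type lines with DMSO, wild-type lines with Senexin B, Cdk8-ko lines with DMSO and Cdk8-ko lines with Senexin B. All lines are of the C57BL/6N strain and carry the BCR-ABL1p185 oncogene, which was delivered by a retrovirus with an eGFP reporter. In the Cdk8-ko lines (Cdk8Δ/ΔVav-Cre), Cdk8 was removed by a Cre recombinase that the Vav promoter drives in blood-forming cells, and the wild-type lines were read as the study's Cdk8 fl/fl controls. Senexin B, an inhibitor of the kinases CDK8 and CDK19, was given at 1 µM for 48 h, against 0.01% DMSO. Each line is a transformed culture that grew out without added growth factors, so lines of 1 genotype can differ from each other in more than Cdk8. Whether the 4 replicates of a genotype came from separate mice was not stated in the sources used here, and p-values measure only the spread between these samples.

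B-cell development in bone marrow is read from a changing set of surface proteins. The earliest committed cells (pro-B cells) carry the stem cell factor receptor KIT, the sialoglycoprotein CD43 (gene Spn) and CD93, the antigen of the AA4.1 antibody. As the heavy chain is rearranged, KIT and CD43 are lost, CD24 (heat stable antigen) and BP-1 (gene Enpep) rise, and the pre-B cell gains CD25 (gene Il2ra). The inhibitory receptors CD22 and CD72 were grouped here with the later stages. CD45 (gene Ptprc) is present throughout, and its long B220 form is the usual gate for the B lineage. The RNA data address at which of these stages each line stood, and whether loss of Cdk8 or the inhibitor moved it.

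The libraries held between 13145876 and 18349425 counted reads. Cdk8 RNA, the check of the genotype labels, lay between 62.9 and 67.3 CPM (counts per 1000000 reads after TMM scaling) in the wild-type DMSO libraries and between 35.4 and 50.5 CPM in the Cdk8-ko DMSO libraries, without overlap. Among all genes tested, 2.95% did not overlap between these groups, and 1.7% did so with the Cdk8-ko lines lower. The log2 fold change of Cdk8 was -0.55 (standard error 0.14). Its unadjusted p was 0.00368 and its adjusted p 0.897 in edgeR's quasi-likelihood test, so Cdk8 itself did not pass. With Senexin B the genotypes overlapped, at 54.9 to 89.4 CPM in the wild-type and 40.8 to 60.3 CPM in the Cdk8-ko libraries, where Cdk8-ko line 2 stood above wild-type lines 2, 3 and 4. The reads count whole genes, so reads of exons outside a deleted part would still be counted. The source of the Cdk8 reads in the Cdk8-ko lines was not tested. The B lineage was clear in every library, with Pax5 between 792 and 1644 CPM and Ebf1 between 703 and 1289 CPM. All 7 B-lineage progenitor markers had reads in all 16 libraries, with a summed level between 4729 and 7214 CPM. By contrast, the 6 T-cell markers summed to at most 2.43 CPM and the 8 myeloid markers to at most 25.2 CPM, the latter mostly Lyz2, and Cd3g, Elane, Ncr1 and Pf4 had 0 reads throughout. In the erythroid list Hbb-bt alone reached 265 CPM, while Hba-a2 was at 0, and in the NK-cell list Klrb1c alone reached 80.7 CPM. Tcf4, counted among the plasmacytoid dendritic cell markers but also used by B cells, lay between 88.1 and 209 CPM. Wild-type line 1 stood apart. Its DMSO library was farthest from the other wild-type DMSO libraries for Spn, Cd24a and Cd93, its file header names another annotation folder than the other 15 although the listed gene models are identical, and its DMSO and Senexin B libraries deviated together least (r = 0.557 across 14164 genes, against 0.732 to 0.873 in the other 7 lines). Results that rest on this line are therefore given with and without it.

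Levels of different genes were compared per kilobase of exon, as RPKM (CPM per kilobase). Cd24a was the most abundant marker with a median of 258 RPKM over the 16 libraries, followed by Cd93 at 210 RPKM (209.5) and Enpep at 103 RPKM. A lower tier held Cd22 at 28.3, Ptprc at 26.1, Spn at 25.4 and Cd72 at 18.8 RPKM. Il2ra had a median of 4.40 RPKM and Kit of 0.0225 RPKM. The step from Enpep to Cd22 was present in all 16 libraries, with Enpep between 1.60 and 31.3 times higher per length. Within the lower tier the order was not fixed: Cd22 exceeded Ptprc in 9 of 16 libraries, and Ptprc exceeded Spn in 6. Cd24a exceeded Cd93 in 10 of 16. The lines thus had high CD93, BP-1 and CD24 RNA, moderate CD43, CD22 and CD72 RNA, little CD25 RNA and, in most lines, hardly any KIT RNA. The counts come from whole cultures, so fewer cells of a stage and less RNA per cell cannot be told apart.

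**Figure D1:**
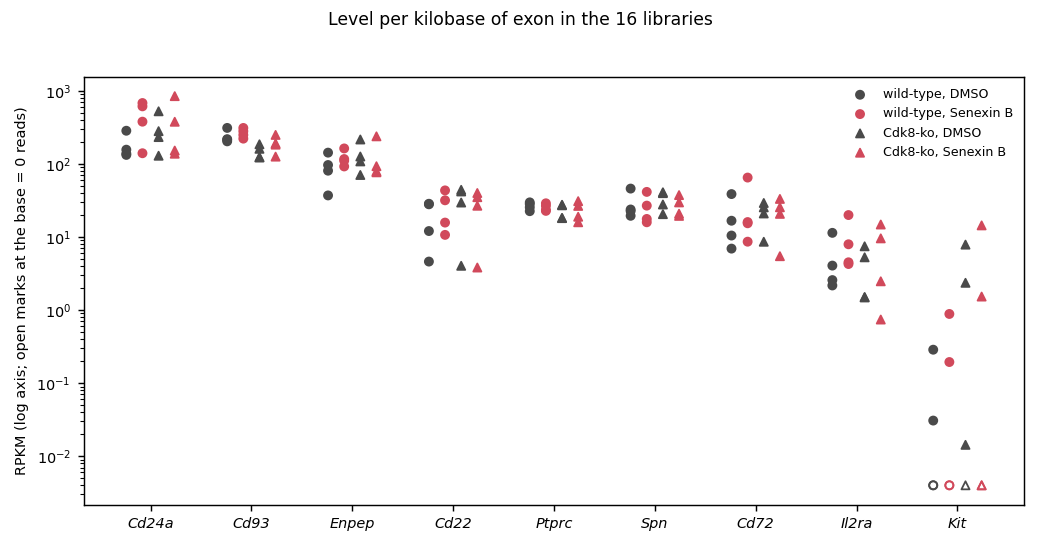
RPKM on a log axis (y) for the 9 markers (x, ordered by median), with 1 point per library, circles for wild-type and triangles for Cdk8-ko lines, grey for DMSO and red for Senexin B. Open marks at the base stand for 0 reads. Cd24a, Cd93 and Enpep lie above the others, Ptprc has the narrowest spread (15.9 to 31.0 RPKM) and Kit runs from 0 to 14.4 RPKM.

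Kit (ENSMUSG00000005672.12, chromosome 5, 75574916 to 75656722, plus strand), the receptor of stem cell factor, separated the lines more than any other marker. With DMSO, Kit had 0 reads in wild-type lines 1 and 4 and in Cdk8-ko line 4, and 2 reads in Cdk8-ko line 3. It had 5 reads in wild-type line 3 and 40 reads (2.56 CPM) in wild-type line 2. In Cdk8-ko lines 1 and 2 it had 337 and 1155 reads, which is 21.1 and 70.2 CPM. Each genotype thus had lines with and lines without Kit. With Senexin B the same lines stood out: 13.7 CPM in Cdk8-ko line 1, 129 CPM in Cdk8-ko line 2, 7.90 CPM in wild-type line 2 and 1.74 CPM in wild-type line 3, with 0 reads in the other 4 lines. So 3 lines had no Kit read in either library, and only Cdk8-ko lines 1 and 2 exceeded 10 CPM in both. A floor of 3 reads in the DMSO libraries at 0 is at most 0.219 CPM, and Kit was at least 321-fold higher in Cdk8-ko line 2. With Senexin B the corresponding bound was at least 561-fold. These floors cover counting error only. The groups overlapped in every comparison, and Kit did not pass the filter on low counts in the wild-type DMSO and Senexin B comparison or in the genotype comparison with DMSO.

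The promoter of Kit is shown because the gene was on in some lines and without reads in others. It is the RefSeq window of 250 bases before and 50 after the transcript start (GRCm38.p6, chr5:75574737-75575036, plus strand), 5′ to 3′, the first of 2 windows listed for Kit. Capitals mark matches, on either strand, to CANNTG (E-box, the site type of E2A and related factors), TTCNNNGAA (the GAS type bound by STAT proteins) or TCCC and GGGA with 2 bases between (the type bound by EBF1).
Kit promoter: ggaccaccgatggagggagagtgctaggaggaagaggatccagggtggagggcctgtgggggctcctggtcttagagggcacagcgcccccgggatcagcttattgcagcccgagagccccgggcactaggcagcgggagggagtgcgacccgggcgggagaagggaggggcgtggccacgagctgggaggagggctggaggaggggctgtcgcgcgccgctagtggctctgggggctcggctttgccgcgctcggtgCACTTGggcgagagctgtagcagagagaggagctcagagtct
The window is 69% G and C, against a median of 52.7% over 32851 promoter windows of the same length. It held 1 E-box, a motif found in 72.3% of all windows, and neither a GAS match (8.3% of windows) nor an EBF1-type match (0.904%). A match is a description of the letters only. Of the 9 markers, 7 had a window in this table.

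Spn (ENSMUSG00000051457.7, chromosome 7, 127132232 to 127137823, minus strand), which encodes the pro-B marker CD43, was present in every library. In wild-type lines 1 to 4 it measured 216, 91.5, 106 and 112 CPM with DMSO and 82.9, 74.7, 126 and 194 CPM with Senexin B. In Cdk8-ko lines 1 to 4 it measured 187, 192, 131 and 96.4 CPM with DMSO and 91.2, 140 (139.6), 176 and 97.6 CPM with Senexin B. The groups overlapped in every comparison. The value was lower with Senexin B in 4 lines and higher in 4, with the lowest ratios in wild-type line 1 (0.384 of DMSO) and Cdk8-ko line 1 (0.489).

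Cd93 (ENSMUSG00000027435.8, chromosome 2, 148436640 to 148443563, minus strand), a C-type lectin that B-lineage precursors carry until they mature, was the only marker whose genotypes did not overlap with DMSO. It measured 2084, 1433, 1365 and 1462 CPM in wild-type lines 1 to 4 and 1244, 819, 831 and 1078 CPM in Cdk8-ko lines 1 to 4. The lowest wild-type library stood above the highest Cdk8-ko library. Group means were 1586 ± 334 and 993 ± 205 CPM (SD, n = 4 lines each). On the log2 scale the Cdk8-ko lines differed by -0.66 (standard error 0.20, 95% interval -1.12 to -0.19). The unadjusted p was 0.0113 and the adjusted p 0.897 in edgeR's quasi-likelihood test, so the difference did not pass, and it ranked 132 of 13174 genes by p. Among all genes tested, 2.95% did not overlap between the genotypes and 1.7% did so with the Cdk8-ko lines lower. Without the DMSO library of wild-type line 1 the log2 fold change was -0.48 (standard error 0.17, adjusted p = 0.431). With Senexin B, the wild-type lines measured 1671, 1487, 2082 and 1876 CPM and the Cdk8-ko lines 1276, 843, 1229 and 1671 CPM, and Cdk8-ko line 4 stood within the wild-type range. The log2 fold change was then -0.50 (standard error 0.23, unadjusted p = 0.0631, adjusted p = 1.00 by edgeR). Within lines, Cd93 was higher with Senexin B in 7 of 8, all except wild-type line 1.

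Ptprc (ENSMUSG00000026395.16, chromosome 1, 138062861 to 138175708, minus strand), the phosphatase CD45, was the steadiest marker. Its lowest level was 292 CPM in the Senexin B library of Cdk8-ko line 2 and its highest 568 CPM in that of Cdk8-ko line 4. Within a line, the median change with Senexin B was 1.05-fold in either direction and the largest 1.27-fold. Cdk8-ko lines 1 and 2, which had the most Kit reads, had the lowest Ptprc levels with DMSO (333 and 335 CPM, against 414 to 547 CPM in the other 6 lines). The highest level with DMSO was that of wild-type line 2, which also had Kit reads. Counts per gene do not separate the B220 form from shorter CD45 forms.

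Cd24a (ENSMUSG00000047139.9, chromosome 10, 43578284 to 43584265, plus strand), the GPI-anchored heat stable antigen, differed widely between the treatments within lines, and not in 1 direction. In wild-type lines 2, 3 and 4 it went from 406, 359 and 344 CPM with DMSO to 1589.9, 980.4 and 1765 CPM with Senexin B, or 3.92-fold, 2.73-fold and 5.13-fold higher. In wild-type line 1 it went the other way, from 737 to 362 CPM. Cdk8-ko line 1 likewise went from 727 to 357 CPM, whereas Cdk8-ko lines 2, 3 and 4 went from 335, 603 and 1359 CPM to 394, 978 and 2191 CPM. The lines numbered 1 thus ended at 0.492 and 0.491 of their DMSO level while the other 6 lines were higher. Over the wild-type lines the log2 fold change was 1.36 (standard error 0.48, unadjusted p = 0.0205, adjusted p = 1.00 by edgeR). Fitted with line as a term it was 1.29 (standard error 0.56, adjusted p = 0.495). Without wild-type line 1, a choice made after seeing the data, the fit with line as a term gave 1.95 (standard error 0.21, adjusted p = 0.000787), past both limits. With any other wild-type line left out the adjusted p was between 0.807 and 1.00, so the call turns on line 1.

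Enpep (ENSMUSG00000028024.14, chromosome 3, 129269175 to 129332720, minus strand), the aminopeptidase known as BP-1 or 6C3 that large pre-B cells display, ranged from 175 CPM in wild-type line 4 to 1019.7 CPM in Cdk8-ko line 2 with DMSO, 5.83-fold. Wild-type lines 1 to 4 measured 381, 674, 456 and 175 CPM, and Cdk8-ko lines 1 to 4 measured 596, 1019.7, 511 and 333 CPM. The genotypes overlapped. With Senexin B, Enpep was 2.99-fold higher in wild-type line 4 (523 CPM), 1.69-fold higher in wild-type line 3 (769 CPM) and at 0.607 of DMSO in Cdk8-ko line 1 (362 CPM). In the 5 other lines the ratio lay between 0.731 and 1.32. Cdk8-ko line 2 was highest with both treatments, at 1126 CPM with Senexin B.

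Il2ra (ENSMUSG00000026770.5, chromosome 2, 11642807 to 11693193, plus strand) encodes CD25, the alpha chain of the interleukin 2 receptor and the classical marker of small pre-B cells. It was higher with Senexin B in all lines except Cdk8-ko line 1. In wild-type lines 1 to 4 it measured 23.2, 14.7, 65.3 and 12.4 CPM with DMSO and 45.5, 24.4, 114 and 25.8 CPM with Senexin B. In Cdk8-ko lines 1 to 4 it measured 8.63, 8.51, 30.2 and 42.7 CPM with DMSO and 4.25, 14.2, 54.8 and 84.9 CPM with Senexin B. In 7 of 8 lines Il2ra was higher with the inhibitor, by 1.66-fold to 2.08-fold, and in Cdk8-ko line 1 it was at 0.492 of its DMSO level. Among all 14164 genes, 7.74% were higher in 7 or 8 of the 8 lines, and 8.11% of those tested in the wild-type lines were higher in all 4 of them. Because the lines differed 7.67-fold from each other with DMSO, the treatment groups overlapped, and without line as a term the log2 fold change in the wild-type lines was 0.88 (standard error 0.67, adjusted p = 1.00 by edgeR). With line as a term it was 0.91 (standard error 0.14, 95% interval 0.58 to 1.24, adjusted p = 0.0484), which passed the limit on p but not that on fold change. That call was thin. Without wild-type line 1 the adjusted p was 0.00945, and without line 2, 3 or 4 it was 0.330, 0.287 and 0.205, with log2 fold changes between 0.84 and 0.95. In the Cdk8-ko lines the value was 0.48 (standard error 0.31, adjusted p = 0.645), and 0.87 (standard error 0.12, adjusted p = 0.0455) without Cdk8-ko line 1, which was left out after its opposite direction was seen. Without Cdk8-ko line 2, 3 or 4 it was 0.39, 0.33 and 0.27, with adjusted p of 0.869, 0.830 and 0.876. Over all 8 lines it was 0.69 (standard error 0.19, adjusted p = 0.0861), and 0.89 (standard error 0.08, adjusted p = 0.000519) without Cdk8-ko line 1. Leaving out any other line gave 0.64 to 0.68 with adjusted p between 0.137 and 0.191. The difference between the genotypes in this response was -0.44 (standard error 0.37, adjusted p = 0.991).

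The Il2ra promoter is shown as that of the marker that passed the limit on p in the wild-type lines (RefSeq, GRCm38.p6, chr2:11642542-11642841, plus strand), with capitals for the same 3 motifs.
Il2ra promoter: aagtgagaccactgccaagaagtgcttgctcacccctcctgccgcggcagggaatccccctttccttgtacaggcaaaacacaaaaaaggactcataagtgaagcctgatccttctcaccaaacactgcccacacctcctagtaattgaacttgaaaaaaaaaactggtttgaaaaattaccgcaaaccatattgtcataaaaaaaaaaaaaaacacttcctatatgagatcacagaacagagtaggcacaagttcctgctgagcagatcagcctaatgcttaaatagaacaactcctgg
None of the 3 motifs had a match, so no capitals appear. The window is 42.7% G and C. Only these letters in this window were searched, and enhancers of the gene lie outside it.

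Cd22 (ENSMUSG00000030577.14, chromosome 7, 30865402 to 30880342, minus strand) encodes a sialic acid-binding inhibitory co-receptor of the B-cell receptor. Lines differed 10.96-fold with DMSO, from 20.4 CPM in Cdk8-ko line 1 to 224 CPM in Cdk8-ko line 4. Wild-type lines 1 to 4 went from 144, 142, 61.0 and 23.3 CPM with DMSO to 219.6, 161, 79.6 and 54.0 CPM with Senexin B. Cdk8-ko lines 1 to 4 went from 20.4, 149.8, 212 and 224 CPM to 19.3, 135, 202 and 177 CPM. All 4 wild-type lines were thus higher and all 4 Cdk8-ko lines lower with the inhibitor, a pattern found in 26 of 14164 genes (0.184%), and in 0.346% when either direction is counted. The ratios to DMSO were 1.52, 1.13, 1.31 and 2.32 in wild-type lines 1 to 4. In Cdk8-ko lines 1 to 4 they were 0.947, 0.903, 0.953 and 0.792, so the fall was small in lines 1 and 3. Cdk8-ko line 1 had 326 reads with DMSO and 332 with Senexin B, so its direction rests on the scaling for depth. Taken by genotype, 8.11% of genes were higher in all 4 wild-type lines and 9.79% lower in all 4 Cdk8-ko lines. The difference in the wild-type lines was 0.61 on the log2 scale (standard error 0.19, unadjusted p = 0.0104, adjusted p = 0.295) and in the Cdk8-ko lines -0.17 (standard error 0.09, adjusted p = 0.584), both with line as a term in edgeR. The difference between the genotypes was -0.76 (standard error 0.21, 95% interval -1.23 to -0.29, unadjusted p = 0.00433). It ranked 29 of 14164 genes, and its adjusted p was 0.991, so it did not pass. Leaving out each line in turn left the difference between -0.89 and -0.56, with adjusted p between 0.218 and 1.00.

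The Cd22 promoter is shown as that of the marker with opposite directions in the genotypes (RefSeq, GRCm38.p6, chr7:30878979-30879278, minus strand, printed in the direction of the gene), with capitals for the same motifs.
Cd22 promoter: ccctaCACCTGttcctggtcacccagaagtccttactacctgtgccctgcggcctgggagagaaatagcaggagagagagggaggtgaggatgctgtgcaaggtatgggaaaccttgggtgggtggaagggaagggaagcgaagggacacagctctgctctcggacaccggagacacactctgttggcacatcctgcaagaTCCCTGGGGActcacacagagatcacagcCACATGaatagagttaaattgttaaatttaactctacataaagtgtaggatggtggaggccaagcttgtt
It held 2 E-boxes and 1 EBF1-type match, which began 49 bases before the transcript start that RefSeq uses for this window. Only 1 of 16 annotated Cd22 transcripts holds the last 30 bases of the window, and the gene model of the count tables begins further upstream, at 30880342. The EBF1-type letters were in 0.904% of all windows, and in none of the other 6 windows of the markers.

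Cd72 (ENSMUSG00000028459.11, chromosome 4, 43446462 to 43454628, minus strand), a C-type lectin-like inhibitory receptor, varied 5.58-fold between lines with DMSO. Wild-type lines 1 to 4 measured 57.3, 133, 35.9 and 23.8 CPM, and Cdk8-ko lines 1 to 4 measured 29.5, 100.2, 72.0 and 87.3 CPM. With Senexin B these were 29.6, 223, 55.0 and 52.9 CPM, and 18.7, 71.1, 87.4 and 114 CPM. Wild-type lines 2, 3 and 4 were higher with the inhibitor (1.53-fold to 2.22-fold) and wild-type line 1 was at 0.517 of DMSO. The log2 fold change in the wild-type lines, fitted with line as a term in edgeR, was 0.43 (standard error 0.33, adjusted p = 0.731). Without line 1, a choice made after seeing the data, it was 0.86 (standard error 0.17, adjusted p = 0.0137), under the fold limit. Without line 2, 3 or 4 it was 0.30, 0.35 and 0.16, with adjusted p of 0.908, 0.9997 and 0.990. Of its 3422 exonic bases, 1423 overlap Tesk1 on the other strand, where counting without strand cannot assign a read to 1 gene, so the level of Cd72 is uncertain (Tesk1 had at most 516 reads).

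**Figure D2:**
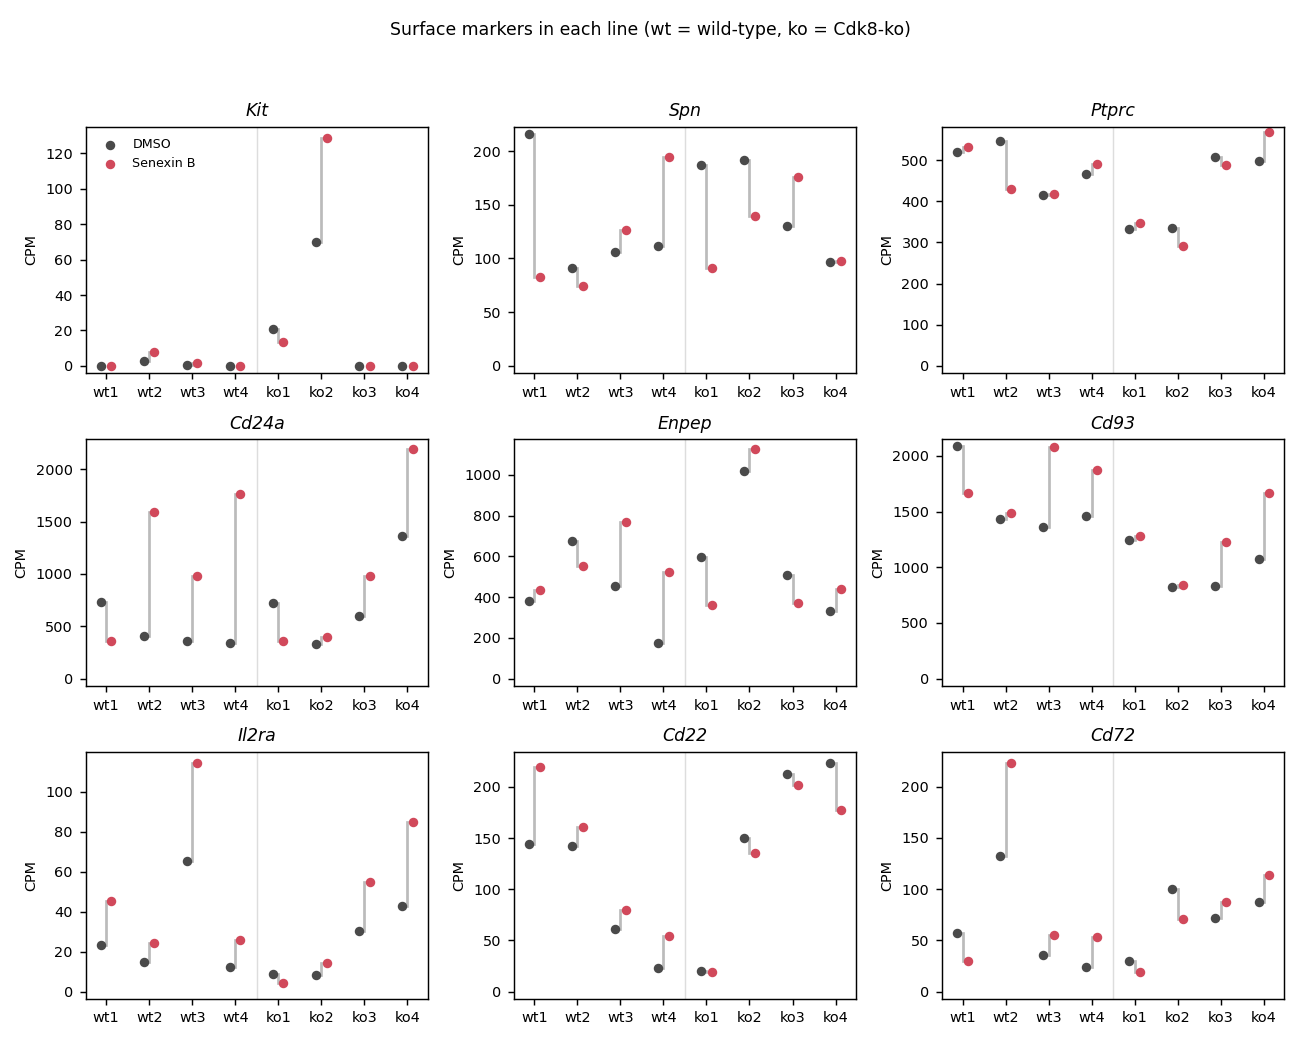
CPM (y, linear from 0) of each marker in the 8 lines (x, wt1 to wt4 wild-type and ko1 to ko4 Cdk8-ko), grey for DMSO and red for Senexin B, with a bar joining the libraries of a line. Kit is high in ko1 and ko2, Cd93 is lower in the ko lines with DMSO, Il2ra is higher with Senexin B in 7 of 8 lines, Cd22 is higher in all wt and lower in all ko lines, and Cd24a is lower in wt1 and ko1.

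No marker passed the test by genotype. To be called, a gene had to differ more than 2-fold with an adjusted p under 0.05. With DMSO 0 of the 8 markers tested were called by edgeR or by DESeq2. By edgeR, 1 of 13174 genes (0.00759%) was called, and the share of all genes called by DESeq2 is not given here. The study, which used DESeq2, reported more genes that differed by genotype. Its methods name the limit on adjusted p used here, whereas the legend of its heatmap of these genes names a looser one. How far the tool or the limit accounts for the gap was not tested. One marker, Cd93, had an unadjusted p under 0.05, as did 5.32% of all genes. The median log2 fold change was 0.23 over the markers, with 5 higher and 3 lower in the Cdk8-ko lines, and 0.00 over all genes. With Senexin B 0 of 9 were called by either tool, against 0 of 13010 genes (0%) by edgeR. None had an unadjusted p under 0.05 in edgeR (1.55% of genes). The intervals were wide: for Cd22 with DMSO the 95% interval of the fold change ran from 0.501 to 5.53, and for Il2ra from 0.261 to 2.40. A p that misses the limit in such intervals does not show that the genotypes are alike. Cdk8, the deleted gene, did not pass by genotype either.

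With all lines in the fit, no marker passed both limits by treatment. In the wild-type lines 0 of 8 were called by edgeR or DESeq2, against 0 of 12989 genes (0%) by edgeR. Cd24a alone had an unadjusted p under 0.05 in edgeR (3.8% of genes). The fit with line as a term called 0 of 8 where it called 45 genes (0.346%). Il2ra and Cd22 had an unadjusted p under 0.05 in it (10.3% of genes), and Il2ra was the 1 marker with an adjusted p under 0.05 (0.354% of genes). Leaving out wild-type line 1 raised that fit to 538 called genes (4.15%), among them Kit and Cd24a. Kit had not passed the filter on low counts with all wild-type lines in. Its reads with DMSO and Senexin B were 40 and 97 in line 2, 5 and 32 in line 3, and 0 in line 4. Without line 1, Il2ra and Cd72 also had an adjusted p under 0.05, as had 7.82% of genes. In the Cdk8-ko lines 0 of 9 were called by either tool, against 0 of 13285 genes (0%) by edgeR, with no unadjusted p under 0.05 in edgeR (1.83%). The fit with line as a term called 7 genes (0.0527%) there and no marker, with no marker at an unadjusted p under 0.05 (10.3% of genes). Without Cdk8-ko line 1 it called 31 genes (0.234%), and Il2ra was the marker with an adjusted p under 0.05 (0.333% of genes). Over all 8 lines 0 of 9 were called by either tool, against 0 of 14164 genes (0%) by edgeR, with no unadjusted p under 0.05 in edgeR (4.86% of genes). Adding line as a term left 0 of 9 against 134 genes (0.946%), with Il2ra at an unadjusted p under 0.05 (16.4% of genes). Without Cdk8-ko line 1 Il2ra passed the limit on p there, as did 3.01% of genes. Without both lines numbered 1, Kit and Cd24a were called in that fit, as were 2.57% of genes (7.5% by the limit on p alone), with log2 fold changes of 1.30 (adjusted p = 0.0378) and 1.24 (adjusted p = 0.0251). That leave-out was chosen after seeing the data. Among the lines left, only wild-type lines 2 and 3 and Cdk8-ko line 2 had Kit reads with both treatments. The difference of the responses between the genotypes was called for 0 of 9 markers and 0% of genes by edgeR, with and without line as a term, and for 0 of 9 by DESeq2. Kit and Cd22 had an unadjusted p under 0.05 there once line was a term, as did 3.24% of genes, and no marker did without it (0.473%).

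**Figure D3:**
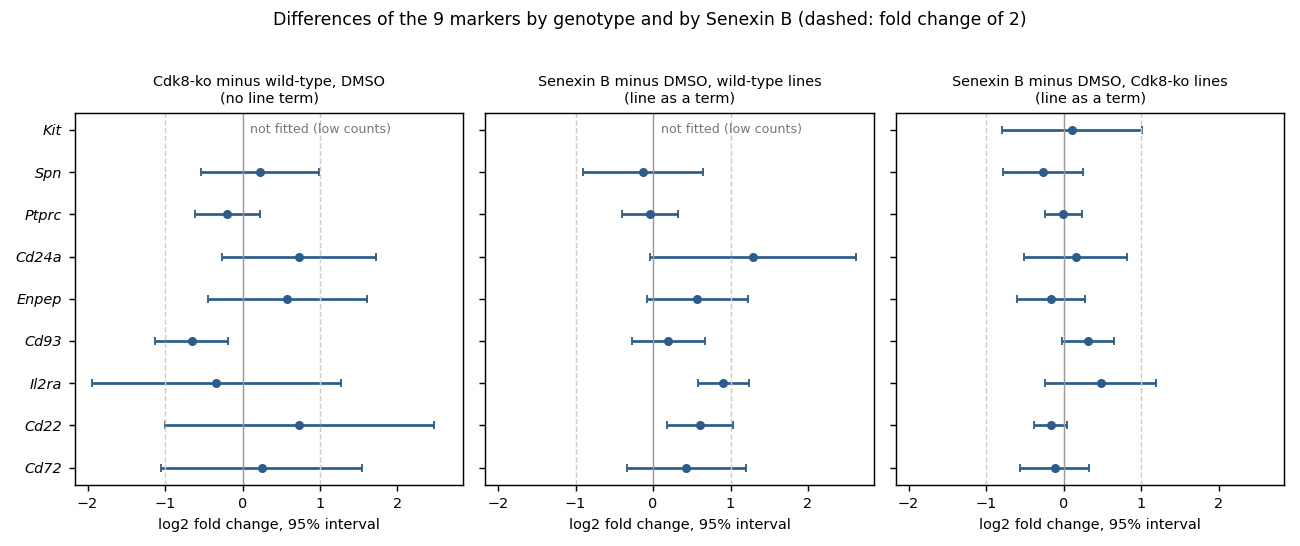
Log2 fold change with its 95% interval (x) for each marker (y) by genotype with DMSO, and by Senexin B in the wild-type and in the Cdk8-ko lines with line as a term. Dashed lines mark a fold change of 2. The intervals of Cd93 by genotype and of Il2ra and Cd22 in the wild-type lines lie to 1 side of 0; Kit could not be fitted in the first 2 panels.

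As a summary, the mean log2(RPKM + 0.1) of Il2ra, Cd22 and Cd72 was subtracted from that of Kit, Spn and Cd93 in each library. Cd93 was counted with the early genes although precursors carry it beyond the pro-B stage. Likewise, Cd72 was counted with the late genes although it is not confined to later stages. The zero of this score is set by its genes and pseudocount, so only the order of the lines is read from it. The Cdk8-ko lines spanned the whole range. With DMSO, Cdk8-ko lines 1 and 2 stood at 2.77 and 1.62, and lines 3 and 4 at -1.20 and -1.56. The wild-type lines lay between, at -0.16, -0.28, -0.43 and 0.93 for lines 1 to 4. With Senexin B the Cdk8-ko lines kept their places (2.79, 1.75, -1.28 and -1.69), and the wild-type lines stood at -0.93, -0.46, -0.35 and 0.20. The mean shift within lines was -0.21 ± 0.35 (SD, n = 8 lines), and the Cdk8-ko mean exceeded the wild-type mean by 0.39 with DMSO, against an SD between lines of 1.56. These are descriptions of a score over the markers, with no test. The order of the genotype means turned without Kit, to 2.61 in the Cdk8-ko and 3.03 in the wild-type DMSO libraries, and with a pseudocount of 1 the means were 0.817 and 0.802. Without Kit the score ran from 1.496 to 4.48 in the Cdk8-ko and from 2.18 to 4.10 in the wild-type DMSO libraries. The order of the lines changed as well: Cdk8-ko line 2 then stood at 2.67, below wild-type lines 1 and 4 (3.25 and 4.10). Cdk8-ko line 1 combined Kit reads with the lowest Cd22 and was the only line with less Il2ra under Senexin B. It also held 37 reads of the stem and progenitor marker Cd34 (2.31 CPM) with DMSO, while the other 7 DMSO libraries had 0.

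**Figure D4:**
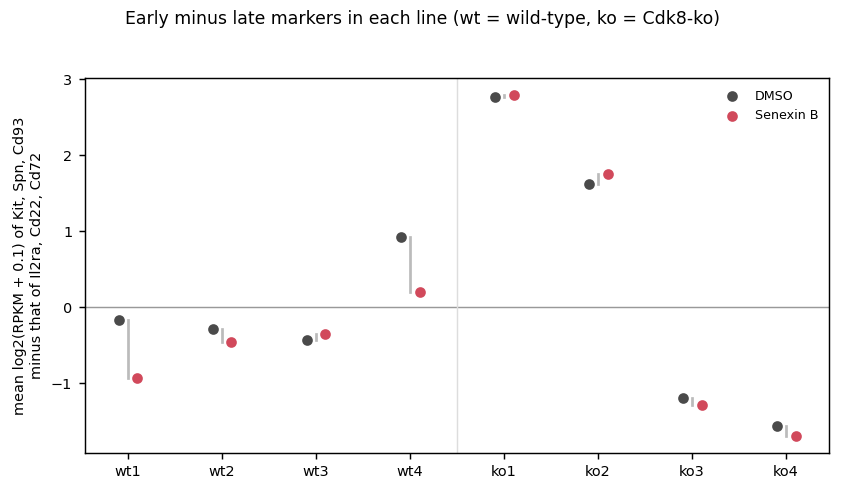
Early minus late marker level (y, log2 units) in the 8 lines (x), grey for DMSO and red for Senexin B. With DMSO, Cdk8-ko lines 1 and 2 lie at 2.77 and 1.62, Cdk8-ko lines 3 and 4 at -1.20 and -1.56, and the wild-type lines between. Without Kit in the score, which is not drawn, Cdk8-ko line 2 lay among the wild-type lines.

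Other surface genes and partners of the markers were followed in 5 lists. Without line as a term no listed gene had an adjusted p under 0.05 in any comparison. The comparison of Senexin B with DMSO over all 8 lines, fitted with line as a term, gave genes with such a p in 4 of the 5 lists, and 2.63% of all 14164 genes had one. Of 9 B-lineage identity genes 1 fell: Cd79b, a signalling chain of the B-cell receptor, by 0.38 on the log2 scale (standard error 0.08, adjusted p = 0.0308), lower in 8 of 8 lines, as were 2.58% of all genes. The list median was -0.03. Of 7 tested early progenitor surface genes, 1 rose and 1 fell, both also past the fold limit. The list median was 0.46, with 5 genes higher and 2 lower. The gene that fell was Flt3, a receptor of early lymphoid progenitors, by 1.63 (standard error 0.37, adjusted p = 0.0399). Flt3 had few reads, at most 96 in a library. None of the 4 pre-B receptor genes passed; Igll1, the lambda 5 surrogate light chain, lay between 629 and 1876 CPM and was higher with Senexin B in 5 of 8 lines.

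Of 9 tested later B-cell surface genes, 3 rose and none fell: Ccr7, a chemokine receptor for lymphoid homing (1.86, standard error 0.22, adjusted p = 0.00273), Fcrla, an intracellular Fc receptor-like protein (1.28, standard error 0.27, adjusted p = 0.0342), and Cd2, an adhesion receptor gained at the pre-B stage (0.58, standard error 0.14, adjusted p = 0.0470). Ccr7 and Cd2 were higher in 8 of 8 lines, as were 1.95% of all genes, and Fcrla in 7. The list median was 0.32, against 0.00 over all genes. Counted without a limit on p, 5 genes of the list were higher and 4 lower. At an unadjusted p under 0.05 in edgeR, 3 were higher and 2 lower (16.4% of all genes had such a p). Markers of mature B cells were near 0, with at most 39 reads of Ms4a1 (CD20) and 4 of Fcer2a (CD23) in any library.

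Among 11 tested ligands, partners and modifiers of the markers, 2 rose and 1 fell. Lyn, the kinase that phosphorylates CD22, was lower with Senexin B in 8 of 8 lines, from 93.9 to 205 CPM with DMSO to 69.9 to 119 CPM, a fall by 0.43 on the log2 scale (standard error 0.07, adjusted p = 0.00989). Hnrnpll, a splicing factor that promotes skipping of the variable exons of Ptprc, was higher in 8 of 8 lines. It went from 20.1, 1.02, 1.86 and 1.48 CPM to 38.7, 6.19, 5.75 and 5.59 CPM in wild-type lines 1 to 4, and from 11.2, 9.49, 25.8 and 0 CPM to 12.6, 17.5, 80.4 and 0.760 CPM in Cdk8-ko lines 1 to 4. The log2 fold change was 1.34 (standard error 0.26, adjusted p = 0.0226), while the Ptprc gene total differed by -0.03 (standard error 0.08). Kitl, the ligand of KIT, rose (2.86, standard error 0.59, adjusted p = 0.0289) from at most 3.01 CPM with DMSO to as much as 9.88 CPM, in Cdk8-ko line 4, which had no Kit read.

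St6gal1, which makes the sialic acid linkage that CD22 binds, was higher in 6 of 8 lines (0.49, standard error 0.18, adjusted p = 0.200) and did not pass. Of the other interleukin 2 receptor chains, Il2rg was present (714 to 3455 reads) and Il2rb had at most 2 reads in any library, so the RNA of the signalling beta chain was at the limit of detection in cells with CD25 RNA. By genotype with DMSO, the smallest unadjusted p in these lists was that of Sema4d, the semaphorin ligand of CD72, which was lower in the Cdk8-ko lines (log2 fold change -0.65, standard error 0.22, unadjusted p = 0.0178, adjusted p = 0.897).

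**Figure D5:**
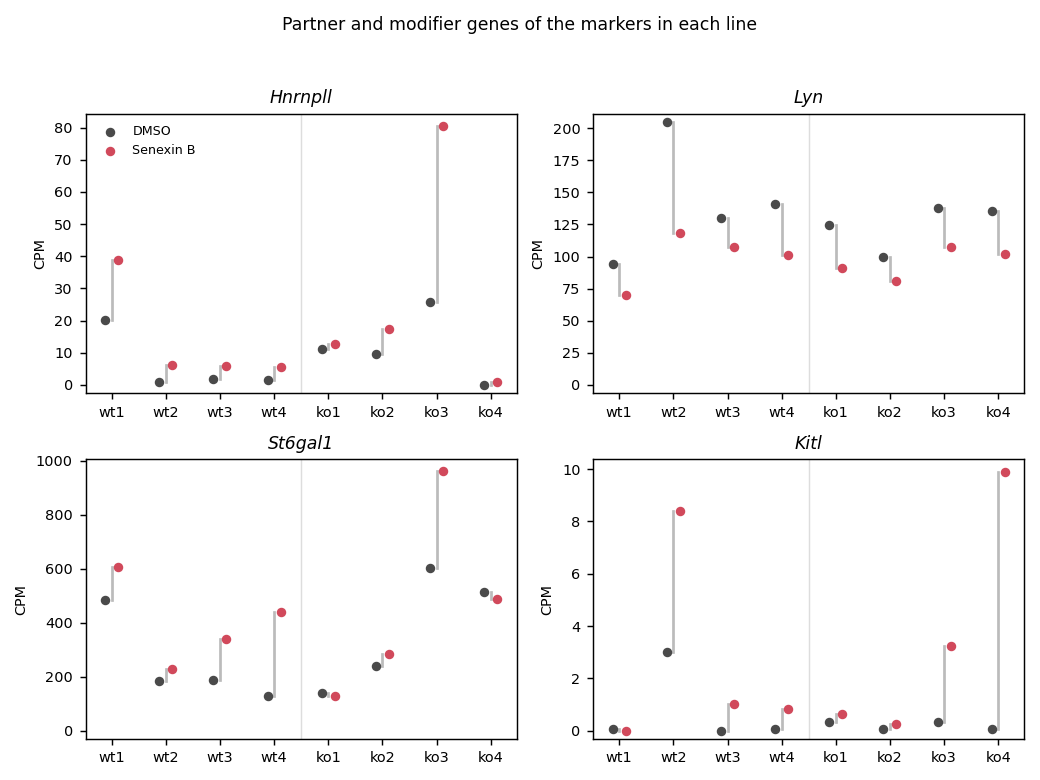
CPM (y, linear from 0) of Hnrnpll, Lyn, St6gal1 and Kitl in the 8 lines (x), grey for DMSO and red for Senexin B, with a bar joining the libraries of a line. Hnrnpll is higher and Lyn lower with Senexin B in 8 of 8 lines, St6gal1 is higher in 6, and Kitl in 7.

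Genes whose pattern over the 16 libraries was most like that of a marker were found by Pearson's r of log2(CPM + 1) over 14124 genes, as a description in which the libraries of a line are not independent. Cd22 was closest to Ralgps2 (r = 0.955) and Wnt10a (0.953), and Kit to Lrp1 (0.947) and Igdcc4 (0.923). Cd24a was closest to Gm15352 (0.909) and to Ccnd3 (0.904), the cyclin D3 gene. Il2ra resembled Suv39h1 (0.901), a histone H3 methyltransferase, and Fam234b (0.863). Cd72 resembled Phka2 (0.893) and Dmrt2 (0.888), Ptprc resembled Gp2 (0.880) and Ptpdc1 (0.862), and Cd93 resembled Wdr37 (0.871) and Sema4d (0.855). The values for Spn were lower, with Anks1 (0.843) and Gm24060 (0.830), and those for Enpep lowest, with Gm45051 (0.803) and Lrp1 (0.801).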

How the data were processed

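RNA of 16 libraries (Lexogen SENSE mRNA-Seq, single-end) was measured. Per the labels, the study's methods and the file headers, the authors trimmed reads with Trimmomatic, aligned them with STAR to mouse GRCm38 and counted exon reads per gene with featureCounts 1.5.1 and GENCODE annotation; no strand option appears in the headers. The deposited values are raw counts per gene, not normalized. Symbols were added from a gene table (50376 of 50686 identifiers matched).

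Counts were filtered (filterByExpr), TMM-scaled and fitted with edgeR 4.0.16 (quasi-likelihood, robust) in R 4.3.3, with Benjamini-Hochberg adjustment over all genes tested and the study's limits, adjusted p under 0.05 and fold change over 2. Each comparison used the 8 libraries of its 2 groups, and the comparison over all lines and the genotype-by-treatment difference used all 16. All confidence intervals are 95%. DESeq2 1.42.0, other filters, scalings and left-out libraries were alternatives. The fit was tested on simulated data. Depth was 13145876 to 18349425 counts, and the floor for a count of 0 was 3 counts.

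Replicate numbers pair the 2 treatments of a line within each genotype: deviations from group means correlated at 0.557 to 0.873 within numbers in all 8 pairs, so fits with line as a term are given where they change a call. Across genotypes they did not pair. No 2 libraries agreed within sampling noise. The markers were named by the rule that set them. In the gene lists the rule named genes that passed and up to 3 with the smallest unadjusted p by genotype with DMSO and over all lines, and for each marker the 2 genes most correlated with it; not all are described, and some genes of the lists are not reported here. Cd34, Ms4a1, Fcer2a, Il2rb and St6gal1 were chosen after their values were seen. Members and lists were chosen with earlier results of these data known. Promoter letters are from RefSeq on GRCm38.p6.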

Additional observations from a re-analysis of the deposited data

Results flagged for a closer look

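In 40 groups of 4 libraries, 7 had a library far from the other 3. The limit used marks about 1 in 20 groups when values are normal and independent. CPM need not be normal, and the groups share lines and libraries, so 7 of 40 was not read as an excess. Of the 7 flagged libraries, 3 were the DMSO library of wild-type line 1, which was highest for Spn (216 CPM), Cd24a (737 CPM) and Cd93 (2084 CPM). Leaving out both libraries of this line raised the calls for Senexin B in the wild-type lines from 45 to 538 genes with line as a term, which does not separate the DMSO library from the Senexin B library. What sets it apart was not tested. Cdk8-ko line 2 stood apart with Senexin B for Kit (129 CPM) and Enpep (1126 CPM), and wild-type line 2 for Kit with DMSO (2.56 CPM) and for Cd72 with Senexin B (223 CPM).

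Cd22 went in opposite directions with Senexin B in the 4 wild-type and the 4 Cdk8-ko lines. The fall was small in Cdk8-ko lines 1 and 3 (0.947 and 0.953 of DMSO) and larger in lines 2 and 4 (0.903 and 0.792). The difference of the responses was -0.76 on the log2 scale with line as a term (unadjusted p = 0.00433, adjusted p = 0.991 in edgeR's quasi-likelihood test), so it did not pass once all genes were considered.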

How the results depend on the processing

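With line as a term (the replicate block, since the numbers pair the libraries of a line), no marker passed both limits while all lines were in the fit. Without the limit on fold change, 1 marker passed in the wild-type lines, Il2ra. With both lines numbered 1 left out, an alternative chosen after seeing the data, 2 passed over all lines (Kit, Cd24a) and 3 without the fold limit. Leaving out libraries or lines in turn under both limits, the count was 0 to 2 in the wild-type lines, highest without line 1 in the fit with the block, and 0 in the Cdk8-ko lines and over all lines. With the fold limit also dropped, it was 0 to 4 in the wild-type lines (without line 1) and 0 to 1 in the Cdk8-ko lines and over all lines (without Cdk8-ko line 1). The count was 0 under every alternative by genotype and for the difference of the responses. The block reversed Enpep by genotype with Senexin B (-0.13), where numbers do not pair lines (same-numbered deviations correlated at -0.150 to 0.430, best with the own number in 1 of 4) and the block changed no call of a marker, and Ptprc (-0.0046) and Cd72 (-0.12) in the Cdk8-ko lines, where no filter also turned Cd72 (-0.0091). Spn over all lines was 0.13 without both lines numbered 1. The causes were not tested. Kit, at 0 reads in 7 libraries, is the marker whose values depth limits most. Cd93 by genotype with DMSO stayed between -0.78 and -0.48, with adjusted p between 0.255 and 0.999.

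Of 52 log2 fold changes, 29 changed sign when a library or line was left out; the lowest and highest values follow. By genotype with DMSO, the log2 fold change ran over Cd72 -0.035 to 0.90 and Il2ra -0.86 to 0.42. By genotype with Senexin B it was Cd22 -0.20 to 0.45, Cd24a -1.02 to 0.032, Cd72 -0.60 to 0.68, Enpep -0.54 to 0.21, Il2ra -1.09 to 0.32, Ptprc -0.31 to 0.0042 and Spn -0.11 to 0.43. For Senexin B in the wild-type lines it was Cd72 -0.43 to 1.21, Ptprc -0.12 to 0.0499 and Spn -0.48 to 0.28. In the Cdk8-ko lines it was Cd22 -0.55 to 0.17, Cd24a -0.40 to 0.82, Cd72 -0.30 to 0.32, Enpep -0.67 to 0.28, Kit -2.38 to 2.36 and Ptprc -0.16 to 0.15. Over all lines it was Cd22 -0.0603 to 0.34, Cd72 -0.20 to 0.55, Enpep -0.062 to 0.37, Kit -0.084 to 2.07 and Ptprc -0.10 to 0.042. For the difference of the responses it was Cd72 -1.21 to 0.44, Cd93 -0.049 to 0.31, Il2ra -0.82 to 0.65, Kit -4.15 to 0.82, Ptprc -0.11 to 0.20 and Spn -0.54 to 0.20.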
